A study of Homo sapiens with 10 samples.

Results

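Transcripts of 9 extracellular matrix glycoproteins were followed in human breast epithelial cells. They are FN1, FBN1, FBN2, SPARC, TNC, THBS1, FBLN1, LTBP1 and LTBP2, taken by symbol. All 9 were found among the 26256 genes of one count table and the 55736 genes of the other, and all 9 had enough reads to be tested in both. MCF10A is an immortalized, nontransformed mammary epithelial line, and all libraries come from it. The first table compares untreated MCF10A cells (2 libraries) with G12V cells (2 libraries), which are MCF10A cells given a lentiviral HRas gene with the G12V mutation and selected with hygromycin. A GFP vector was given along with HRas. By the paper, G12V cells first stop growing and grow again after a few weeks, and no vector control is named for the MCF10A cells. The second table compares parental MCF10A cells given 10 µM Nutlin-3a, which blocks the binding of MDM2 to p53, for 4 h (3 libraries) with parental cells given the vehicle DMSO for the same time (3 libraries). All cells were grown with epidermal growth factor, insulin, hydrocortisone, cholera toxin and horse serum, so all the comparisons are made in the presence of growth factors and of serum matrix proteins.

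Fibronectin (FN1) is a secreted dimer that cells assemble into fibrils through integrins. Fibrillin-1 and fibrillin-2 (FBN1, FBN2) form the microfibrils on which elastic fibres are built, fibulin-1 (FBLN1) binds to fibronectin and to elastic fibres, and the latent TGF-beta binding proteins (LTBP1, LTBP2) are fibrillin relatives that reside on microfibrils. LTBP1 tethers latent TGF-beta in the matrix, whereas LTBP2 does not bind it. Thrombospondin-1 (THBS1), tenascin-C (TNC) and SPARC are matricellular proteins, which modulate the contact of cells with the matrix more than they build it.

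Total counts per library were 21538593 to 23683975 in the first table and 15453226 to 17378734 in the second, so that 1 CPM (a count scaled to the size of its library) stands for 22 to 23.39 reads and 15.2 to 18.08 reads. CPM were computed on library sizes scaled by the TMM method. HRAS had 72.6 and 65.9 CPM in MCF10A and 631 and 515 CPM in G12V, and the p53 target CDKN1A had 624 to 673 CPM with DMSO and 2688 to 3349 CPM with Nutlin-3a. All 10 markers of mammary epithelium that were listed had at least 1 CPM in every MCF10A, DMSO and Nutlin-3a library, and 6 of 10 did in the G12V libraries. In bulk RNA, fewer cells of a type and less RNA per cell cannot be told apart.

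The 250 bases before the RefSeq start are shown for a pair of genes that fell in G12V cells, FN1 and THBS1, and for the pair that rose, FBN2 and SPARC. They are written 5′ to 3′ on the strand of the gene (RefSeq, each matched once and exactly to GRCh37), and capitals mark the motif GGGCGG, read on either strand, and the palindrome TGACGTCA.
FN1, chr2:216300792-216301041, minus strand: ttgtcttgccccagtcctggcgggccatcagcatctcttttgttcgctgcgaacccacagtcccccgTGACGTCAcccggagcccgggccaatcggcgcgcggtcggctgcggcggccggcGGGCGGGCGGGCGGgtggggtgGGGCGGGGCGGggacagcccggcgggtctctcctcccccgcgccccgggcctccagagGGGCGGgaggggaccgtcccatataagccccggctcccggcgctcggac
THBS1, chr15:39873030-39873279, plus strand: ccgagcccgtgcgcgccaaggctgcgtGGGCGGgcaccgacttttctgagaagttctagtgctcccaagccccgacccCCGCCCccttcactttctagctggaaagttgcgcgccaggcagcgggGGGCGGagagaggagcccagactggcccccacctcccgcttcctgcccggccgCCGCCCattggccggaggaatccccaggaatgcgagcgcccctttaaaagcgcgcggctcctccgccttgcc
FBN2, chr5:127873939-127874188, minus strand: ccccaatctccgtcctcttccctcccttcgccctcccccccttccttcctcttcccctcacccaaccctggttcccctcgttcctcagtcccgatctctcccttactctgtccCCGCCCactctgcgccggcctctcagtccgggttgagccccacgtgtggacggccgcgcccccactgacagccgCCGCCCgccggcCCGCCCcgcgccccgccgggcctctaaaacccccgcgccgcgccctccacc
SPARC, chr5:151066477-151066726, minus strand: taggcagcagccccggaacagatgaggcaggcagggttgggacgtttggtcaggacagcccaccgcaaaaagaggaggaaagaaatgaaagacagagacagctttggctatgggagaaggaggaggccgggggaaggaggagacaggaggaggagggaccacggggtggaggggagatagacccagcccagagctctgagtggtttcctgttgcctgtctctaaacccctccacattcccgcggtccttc

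GGGCGG, the core of the GC box, occurred 6 times before FN1, with some of the matches sharing bases, 4 times before THBS1 and 3 times before FBN2, and SPARC had no match. It was also found 3 times before LTBP2 and 1 time each before TNC and FBLN1, and not before FBN1 or LTBP1. So 6 of the 9 genes held it in this window, and 42.6% of all 35116 promoters did. Neither TGACTCA, a motif of AP-1, nor CACCTG, an E-box, was found before any of the 9 genes on either strand, and 4.20% and 17.5% of all promoters hold them. TGACGTCA, the cyclic AMP response element, was searched after the sequences had been read. It was found before FN1 and before 1 of the 3 starts listed for LTBP1, and in 1.65% of all promoters. The GC content was 76.4% for FN1, 69.6% for THBS1, 72.8% for FBN2 and 59.2% for SPARC, beside a median of 58.0% over all promoters. The genes of both directions thus included GC-rich promoters, and these matches are letters in a window and not measured binding. The RefSeq start used is not always the start of the gene as counted for MCF10A and G12V. The FBN1 window (48937168 to 48937417) lies inside the counted gene, and those of FN1, SPARC, TNC, FBLN1 and LTBP2 overlap theirs. The LTBP1 windows at 33359186 to 33359435 and 33359413 to 33359662, which hold none of the motifs, also lie inside the counted gene. Matches and GC content there hold for the RefSeq start used.

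The first comparison asks how the matrix genes differ between G12V cells and parental MCF10A cells. The oncogene, the vectors, the selection and the regrowth cannot be told apart in this design. FN1, THBS1, FBLN1 and LTBP2 fell in G12V cells and FBN2 and SPARC rose. Thus 6 of the 9 genes were differentially expressed (DE), which asks of edgeR's quasi-likelihood test an adjusted p below 0.05 and a log2 fold change beyond 0.5 in either direction. Of all 14376 genes tested, 11.0% were DE, 5.01% being higher and 5.95% lower, beside 2 and 4 of the 9 matrix genes. All 9 had MCF10A and G12V values that did not overlap, as 54.8% of the tested genes did. The median log2 fold change was -1.19 over the 9 genes (4 positive, 5 negative) and -0.00109 over all genes tested. Without MCF10A replicate 1 only 1 MCF10A library is left, and this test lost its calls over the whole table. The loss of the 6 calls is thus not particular to these genes, and DESeq2 and the exact test were not run that way. The 6 genes kept their direction, and their values without that library are given with each gene.

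**Figure D1:**
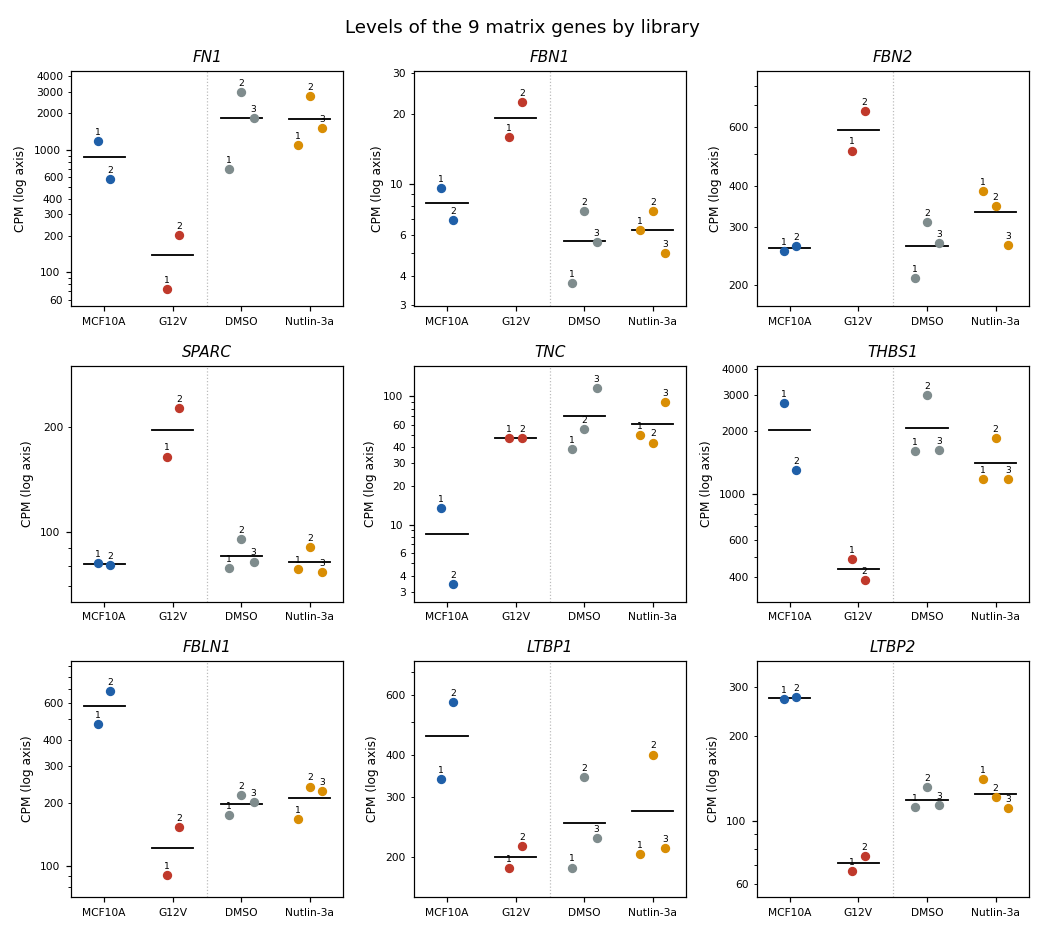
CPM (log axis, a scale of its own in each panel) of the 9 matrix genes in the 10 libraries, with the replicate number above each point and a line at the group mean. The dotted line separates the tables, which were normalized separately. FN1 lay between 577 and 1190 CPM in MCF10A and between 72.9 and 203 CPM in G12V, and SPARC moved the other way, from 80.7 and 81.6 CPM to 165 and 227 CPM.

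FN1 lies on chromosome 2 (hg19, 216225163 to 216300793, minus strand). It had 1190 and 577 CPM in the MCF10A libraries and 72.9 and 203 CPM in the G12V libraries. Both G12V libraries were below both MCF10A libraries, but the replicates of each group were far apart. FN1 fell by 2.68 on the log2 scale (SE 0.59, adjusted p = 0.0394 from edgeR). The MCF10A libraries differed 2.06-fold from each other and the G12V libraries 2.78-fold, and among genes with at least 10 CPM on average in the group only 2.78% and 1.09% were spread as widely. Without MCF10A replicate 1, which had the higher level, the log2 fold change was -2.06 (adjusted p = 0.234).

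THBS1, which binds integrins, CD36 and CD47 and can activate latent TGF-beta, had 2748 and 1310 CPM in MCF10A and 489 and 388 CPM in G12V. It was the most abundant of the 9 in MCF10A by CPM. The lower of the MCF10A libraries still had more than either of the G12V libraries. THBS1 (chromosome 15, 39873280 to 39891121, plus strand) fell by 2.21 on the log2 scale (SE 0.41, adjusted p = 0.0247), and without MCF10A replicate 1 its log2 fold change was -1.55 (adjusted p = 0.124).

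FBLN1 had 474 and 685 CPM in MCF10A and 91.1 and 153 CPM in G12V, with a clear gap between the groups. It lies on chromosome 22 (45898719 to 45997014, plus strand) and fell by 2.25 on the log2 scale (SE 0.34, adjusted p = 0.0128). Here MCF10A replicate 2 was the higher one, unlike for FN1 and THBS1, and without MCF10A replicate 1 the log2 fold change was -2.47 (adjusted p = 0.106).

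The latent TGF-beta binding proteins were both lower in the G12V libraries. LTBP2 (chromosome 14, 74964886 to 75079034, minus strand) had 271 and 276 CPM in MCF10A and 66.7 and 75.4 CPM in G12V. Its replicates lay closer together than those of FN1, THBS1 or FBLN1 in both groups, and its fall had the smallest adjusted p of the 9 genes. It fell by 1.95 on the log2 scale (SE 0.19, adjusted p = 0.00359), and without MCF10A replicate 1 its value was -1.94 (adjusted p = 0.0775). LTBP1 (chromosome 2, 33172369 to 33624575, plus strand) had 340 and 570 CPM in MCF10A and 185 and 215 CPM in G12V. The groups did not overlap, but LTBP1 was not DE, since its value of -1.19 on the log2 scale (SE 0.30) just missed the threshold (adjusted p = 0.0570).

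Both fibrillins had higher values in G12V. FBN2, the fibrillin known best from developing tissues, lies on chromosome 5 (127593601 to 127873735, minus strand). It had 255 and 263 CPM in MCF10A and 511 and 672 CPM in G12V, so that each G12V library was well above the close pair of MCF10A libraries. FBN2 rose by 1.19 on the log2 scale (SE 0.23, adjusted p = 0.0268). It was also the DE gene most open to the choice of libraries, since it also lost its call when MCF10A replicate 2 (adjusted p = 0.0780) or G12V replicate 2 (adjusted p = 0.0863) was left out, beside MCF10A replicate 1 (adjusted p = 0.173). FBN1 (chromosome 15, 48700503 to 48937985, minus strand), the main fibrillin of adult tissues, had the lowest mean CPM of the 9 in both groups, at 9.59 and 6.96 CPM in MCF10A and 15.9 and 22.5 CPM in G12V. Its log2 fold change of 1.21 (SE 0.31) did not pass (adjusted p = 0.0591), and it was DE without G12V replicate 1 (1.44, adjusted p = 0.0166).

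SPARC, a collagen-binding protein, had 81.6 and 80.7 CPM in MCF10A and 165 and 227 CPM in G12V. The MCF10A values were almost equal and both G12V values were well above them. SPARC lies on chromosome 5 (151040657 to 151066615, minus strand) and rose by 1.27 on the log2 scale (SE 0.22, adjusted p = 0.0186), and its adjusted p was 0.157 without MCF10A replicate 1. TNC, a hexameric glycoprotein found in remodelling tissue, lies on chromosome 9 (117781854 to 117880536, minus strand). It had 13.4 and 3.44 CPM in MCF10A and 47.5 and 47.1 CPM in G12V. The G12V libraries agreed closely while the MCF10A libraries differed 3.89-fold. TNC had the highest positive log2 fold change of the 9 genes, 2.49 (SE 0.59), and was not DE (adjusted p = 0.0505). It was DE without MCF10A replicate 2, the lower of its MCF10A libraries (1.82, adjusted p = 0.00656), without G12V replicate 1 (2.49, adjusted p = 0.00476) and without G12V replicate 2 (2.50, adjusted p = 0.00745).

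**Figure D2:**
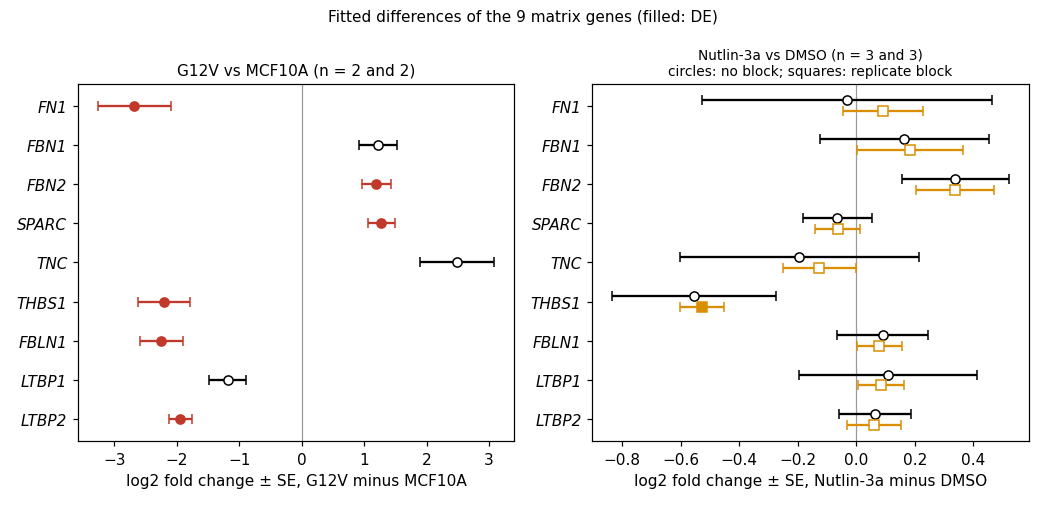
Fitted log2 fold change (points) with its SE (bars) of the 9 genes, G12V minus MCF10A on the left (n = 2 and 2) and Nutlin-3a minus DMSO on the right (n = 3 and 3), where squares come from the blocked fit, in which libraries of 1 number form a pair. Filled points are DE. On the left FN1, THBS1, FBLN1 and LTBP2 lie at -2.68 to -1.95 and FBN2 and SPARC at 1.19 and 1.27. On the right, where the axis is narrower, only THBS1 with the block (-0.53) is filled.

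The mix of the 9 transcripts differed as well. Their summed level was 5382 and 3772 CPM in MCF10A and 1644 and 2002 CPM in G12V, with no overlap. FN1 and THBS1 together made up 73.2% and 50.0% of this sum in MCF10A and 34.2% and 29.5% in G12V. Per kilobase of the canonical transcript, the mean levels in MCF10A were 260 CPM per kb for THBS1, 200 for FBLN1, 105 for FN1, 70.0 for LTBP1, 32.3 for LTBP2, 23.7 for FBN2, 23.5 for SPARC, 0.988 for TNC and 0.713 for FBN1. The libraries of THBS1 and FBLN1 overlapped on this scale, as did FN1 with LTBP1, FBN2 with SPARC and TNC with FBN1, and the other neighbours did not. In G12V the order was SPARC with 56.7 CPM per kb, THBS1 with 56.3, FBN2 with 54.1, FBLN1 with 42.1, LTBP1 with 30.8, FN1 with 16.4, LTBP2 with 8.39, TNC with 5.56 and FBN1 with 1.66. Each of the first 4 genes there overlapped with its neighbour, and so did FN1 with LTBP2, so SPARC cannot be placed above THBS1 or FBN2. These orders depend on the length used. Over the union of all annotated exons, FBLN1 had 79.6 CPM per kb in MCF10A, LTBP1 (61.9) stood above FN1 (51.3) there, and THBS1 (47.9) stood above SPARC (42.2) in G12V. By both lengths THBS1 and FBLN1 had the highest means in MCF10A, THBS1, SPARC and FBN2 had the highest in G12V, and TNC and FBN1 had the lowest in both.

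**Figure D3:**
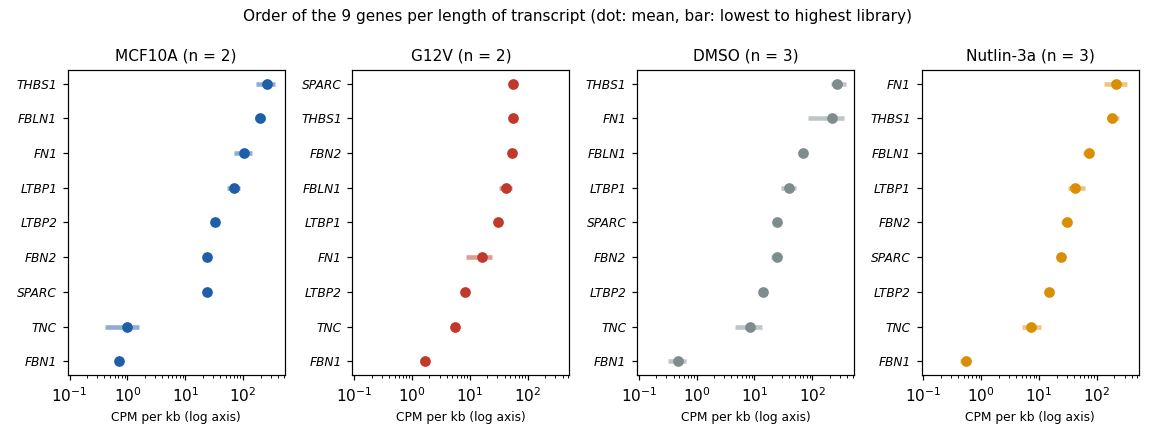
Mean CPM per kilobase of canonical transcript (dots, log axis) with the range from the lowest to the highest library (bars) for the 9 genes in each group, ordered from the highest mean at the top. THBS1 leads in MCF10A with 260 CPM per kb, whereas SPARC, THBS1 and FBN2 lie together at 54.1 to 56.7 in G12V. TNC and FBN1 stand last in all 4 groups.

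Genes that work with these proteins were read from 5 lists, to be set beside the 11.0% of all genes tested that were DE (5.01% higher, 5.95% lower). Of the other matrix glycoproteins, 28 of 45 were tested, and 3 were higher and 6 lower in G12V (median log2 fold change -0.222). FSTL1, a SPARC relative, rose from 72.5 ± 19.7 to 198 ± 15.5 CPM (SD, n = 2 each, log2 fold change 1.45, adjusted p = 0.0172). FRAS1, a basement membrane protein, rose from 14.9 to 44.9 CPM, and SLIT2, a guidance ligand, from 15.6 to 54.2 CPM. IGFBP7, a secreted binding protein of insulin-like growth factors, fell from 153 ± 12.4 to 2.78 ± 0.237 CPM (SD, n = 2 each, log2 fold change -5.78, adjusted p = 0.000452), and it overlaps POLR2B on the opposite strand, which reached 201 CPM. SPOCK1, a proteoglycan with a SPARC-like domain, fell from 20.9 to 4.26 CPM, and THBS3, a thrombospondin, from 19.7 to 7.92 CPM. MFAP5, MMRN2 and POSTN, each with a mean below 10 CPM in both groups, fell too, and POSTN had at most 1 read in a G12V library. The list therefore held DE genes of both directions, as the 9 genes did.

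Of the receptors, 17 of 18 were tested and 2 were DE (median -0.188), a share near the 11.0% of all genes tested. ITGA5, the subunit that pairs with ITGB1 as the classical fibronectin receptor, rose from 137 and 140 CPM to 344 and 677 CPM (log2 fold change 1.89, SE 0.35, adjusted p = 0.0233), while FN1 itself fell. ITGB6, whose integrin binds fibronectin and activates latent TGF-beta, fell from 92.2 and 58.2 CPM to 0.257 and 0.0892 CPM, with 6 and 2 reads left in the G12V libraries. Of the enzymes and helpers of elastic fibres, 18 of 20 were tested, with 4 higher and 2 lower (median 0.278). The cross-linking enzyme LOXL2 rose from 25.2 to 132 CPM (log2 fold change 2.39), the transglutaminase TGM2, which also cross-links fibronectin, from 16.7 to 147 CPM (3.14), and ADAMTSL4, which binds fibrillin-1, from 27.0 to 169 CPM (2.65). PCSK5, a proprotein convertase, was higher at below 10 CPM. LOXL1 was lower at below 10 CPM, and so was TLL1, which had 0 reads in both G12V libraries. LOXL1 overlaps an antisense gene that reached 9.88 CPM.

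Of the genes of latent TGF-beta and its signal, 13 of 14 were tested. ENG, a TGF-beta coreceptor, rose from 77.0 to 143 CPM (log2 fold change 0.89, adjusted p = 0.0272) and PMEPA1, a target and inhibitor of the pathway, fell from 115 to 13.9 CPM (-3.05, adjusted p = 0.00828), and the median of the list was -0.0898. Of the proteases that can cut these glycoproteins, 13 of 18 were tested and 4 were DE, all lower. HTRA1, which can cleave fibronectin, fell from 206 to 47.5 CPM (log2 fold change -2.12), MMP14, a membrane-bound metalloprotease, from 279 to 79.0 CPM (-1.82), and the plasminogen activators PLAT from 180 to 51.9 CPM (-1.79) and PLAU from 87.7 to 32.8 CPM (-1.42). The median of this list was 0.237, so its sign is opposite to that of the 4 DE genes. Like the 6 matrix genes, none of these was DE without MCF10A replicate 1.

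Markers of other cell types were read beside these values. The summed level of the epithelial markers was 11778 to 14588 CPM in MCF10A and 1633 to 2468 CPM in G12V. All 10 of these genes had lower values in G12V without overlap, and 8 of them were DE. Of all genes tested, 54.8% did not overlap in either direction and 5.95% were DE and lower. The fibroblast markers summed to 91.9 to 108 CPM in MCF10A and 54.5 to 61.3 CPM in G12V. DCN held 25.3 and 58.3 CPM of this in MCF10A and 48.5 and 53.1 CPM in G12V, and was not DE. FAP fell from 49.0 to 1.11 CPM, and LUM rose from at most 1 read to 27 to 28 reads. COL1A1 went from 8.70 to 3.94 CPM and was not DE, and COL3A1 had 0 reads in all 4 libraries. The immune markers summed to at most 50.7 CPM in MCF10A and 60.6 to 114 CPM in G12V, where PTPRC had 0 reads and CD68 rose, and the endothelial markers summed to 8.68 to 33.1 CPM and 9.92 to 15.3 CPM. The part of these markers in the differences of the matrix genes was not tested.

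The second comparison asks how the same genes responded when p53 was stabilized for 4 h. None of the 9 was DE in the fit without a block, beside 0.170% of the 13529 genes tested, and for none did the groups fail to overlap, beside 8.07% of the genes tested. The adjusted p was 0.9997 for each, and no unadjusted p was below 0.05, and DESeq2 and edgeR's exact test called 0 of the 9 as well. The median log2 fold change was 0.0637 over the 9 genes and 0.00659 over all genes tested. The replicate numbers were taken to pair these libraries, and with the number as a block THBS1 alone was DE. So 1 of 9 was called and was lower, beside 1.22% of all genes called and 0.517% called lower.

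THBS1 had 1608, 2978 and 1624 CPM with DMSO and 1184, 1862 and 1179 CPM with Nutlin-3a, in the order of the replicate numbers. The groups overlap because replicate 2 was high under both treatments, whereas within each number the Nutlin-3a library was the lower one. The ratios of Nutlin-3a to DMSO were 0.736, 0.625 and 0.726. The log2 fold change was -0.56 (SE 0.28, adjusted p = 0.9997) without the block and -0.53 (SE 0.07, adjusted p = 0.00288, both from edgeR) with it. Without the filter on low counts THBS1 was also called lower in the fit without the block (-0.56, adjusted p = 0.0389). That setting called 99 genes of the whole table, beside 23 with the filter. It also gave THBS1 and FN1 nearly the same SE (0.15 each), whereas with the filter these were 0.28 and 0.50. The call without the filter thus depends on the setting and is not separate support.

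FN1 had 695, 2951 and 1822 CPM with DMSO and 1094, 2740 and 1516 CPM with Nutlin-3a. Its level varied far more between replicates than between treatments. The highest DMSO library had 4.24 times the lowest one, a spread that only 0.357% of genes with at least 10 CPM matched, and with Nutlin-3a the spread was 2.50-fold, matched by 1.54%. The log2 fold change of -0.03 (SE 0.50) became 0.09 (SE 0.14) with the block, and the ratios within the numbers were 1.57, 0.929 and 0.832. The fibroblast markers were also lowest in replicate 1 under both treatments, with a sum of 44.9, 158 and 153 CPM with DMSO and 46.5, 185 and 169 CPM with Nutlin-3a. DCN made up most of the sum in replicates 2 and 3 and had 12.9, 109 and 94.5 CPM with DMSO, while COL1A1 had 11.7, 10.4 and 9.74 CPM. COL3A1 had at most 1 read in each library, and the part of these markers in the spread of FN1 was not tested.

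LTBP1 had 186, 344 and 227 CPM with DMSO and 204, 400.0 and 212 CPM with Nutlin-3a, so replicate 2 was again the highest of each treatment, as for FN1 and THBS1. TNC had its highest value in replicate 3 instead, with 39.0, 55.3 and 116 CPM with DMSO and 49.9, 43.5 and 90.2 CPM with Nutlin-3a. Its DMSO libraries were spread 2.97-fold, which 0.778% of genes matched. The log2 fold change of LTBP1 was 0.11 (SE 0.31) without the block and 0.09 (SE 0.08, adjusted p = 0.749) with it. For TNC it was -0.19 (SE 0.41) without the block and -0.13 (SE 0.12, adjusted p = 0.767) with it, and neither gene was called.

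FBN2 had 211, 310 and 269 CPM with DMSO and 387, 348 and 265 CPM with Nutlin-3a. It had the highest positive log2 fold change of the 9 genes here, 0.34 (SE 0.18), and most of it came from replicate 1, since the ratios within the numbers were 1.84, 1.12 and 0.985. In this table FBN2 overlaps SLC27A6 on the opposite strand, which reached 26.3 CPM. FBN1 had 3.71, 7.61 and 5.60 CPM with DMSO and 6.28, 7.63 and 5.00 CPM with Nutlin-3a (log2 fold change 0.16, SE 0.29).

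SPARC, FBLN1 and LTBP2 had the smallest standard errors of the 9 without the block. SPARC had 79.2, 95.7 and 82.4 CPM with DMSO and 78.6, 90.5 and 76.9 CPM with Nutlin-3a, a log2 fold change of -0.06 (SE 0.12). FBLN1 had 175, 219 and 202 CPM with DMSO and 168, 240 and 228 CPM with Nutlin-3a (0.09, SE 0.16), and LTBP2 had 112, 132 and 114 CPM with DMSO and 141, 122 and 111 CPM with Nutlin-3a (0.06, SE 0.12). With the block the log2 fold changes were -0.06 (SE 0.08) for SPARC, 0.08 (SE 0.08) for FBLN1 and 0.06 (SE 0.09) for LTBP2, and none of these 3 genes was called in either fit.

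**Figure D4:**
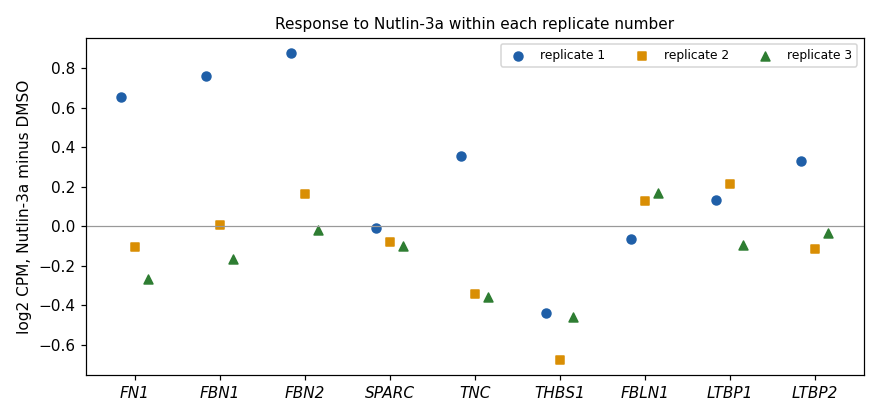
Difference in log2 CPM between the Nutlin-3a and the DMSO library of the same replicate number (y axis) for each of the 9 genes, with a symbol for each of the 3 numbers and a line at no difference. THBS1 lies below the line in all 3, at -0.44, -0.68 and -0.46, and SPARC does so by -0.01 to -0.10. Replicate 1 alone is far above the line for FN1 (0.65), FBN1 (0.76) and FBN2 (0.88).

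Per kilobase, THBS1 with 266 CPM per kb and FN1 with 217 led with DMSO and overlapped, and FN1 with 213 and THBS1 with 181 led with Nutlin-3a and overlapped as well. FBLN1 followed with 68.5 and 72.8 CPM per kb and LTBP1 with 38.8 and 41.8, and TNC with 8.24 and 7.20 and FBN1 with 0.486 and 0.543 came last. Over the union of exons LTBP1, with 34.3 and 37.0 CPM per kb, stood above FBLN1, with 27.3 and 29.0, and THBS1 stood above FN1 in both groups. In the 5 lists of related genes, 27, 14, 16, 13 and 13 genes were tested in the order used above, and none was DE. With the block the protease ADAMTS1, which cleaves matrix proteoglycans, was the only gene of these lists called, beside 1.22% of all genes tested. It was called lower, as 0.517% of all genes were. Its level was below 10 CPM, at 2.93 ± 0.748 CPM with DMSO and 1.39 ± 0.202 CPM with Nutlin-3a (SD, n = 3 each, log2 fold change -1.06, adjusted p = 0.0295).

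The tables were counted with different gene models and normalized separately, so the levels of parental cells in them are set side by side with no test. TNC had 8.40 ± 7.02 CPM (SD, n = 2) in untreated MCF10A and 70.0 ± 40.4 CPM (SD, n = 3) with DMSO, FBLN1 had 580 ± 149 and 199 ± 22.2 CPM, LTBP2 had 273 ± 3.32 and 120 ± 11.1 CPM, and FN1 had 883 ± 433 and 1823 ± 1128 CPM. THBS1 had 2029 ± 1017 and 2070 ± 786 CPM, FBN2 259 ± 5.51 and 263 ± 50.1 CPM and SPARC 81.1 ± 0.693 and 85.8 ± 8.72 CPM. LTBP1 had 455 ± 163 and 252 ± 82.4 CPM, and FBN1 8.27 ± 1.86 and 5.64 ± 1.95 CPM.

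For each of the 9, the gene of most like profile was the one with the smallest root mean square (RMS) difference in log2 CPM over the 10 libraries, centred within each table, out of 9687 genes. It was AVL9 for SPARC (RMS 0.086), KIAA0040 for FBLN1 (0.101), COBLL1 for LTBP2 (0.103), C10orf12 for FBN2 (0.133), TMEM2 for FBN1 (0.137), NEBL for LTBP1 (0.197), ASAP3 for THBS1 (0.333), THBD for TNC (0.384) and NRCAM for FN1 (0.438). The median RMS over all genes ran from 0.459 for SPARC to 1.13 for FN1. NRCAM, a cell adhesion molecule, had 11.4 to 18.6 CPM in MCF10A and means of 1.91 CPM in G12V, 15.7 with DMSO and 17.4 with Nutlin-3a. It so fell beside FN1 at a far lower level. SPOCK1 of the glycoprotein list was second nearest for both FN1 (0.472) and THBS1 (0.345). The points share the contrast between MCF10A and G12V and the spread between replicates, and the likeness is a description.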

How the data were processed

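The deposited values are raw counts per gene, made by the authors from poly(A) RNA with TopHat (hg19) and HTSeq and kept in one table for MCF10A and G12V and another for the Nutlin-3a experiment, with tools and build per the submitters' processing notes. The study's reporting summary names the tool versions, and the annotations and the strand setting are not given in the sources used here. The NEBNext Ultra kit named in the labels does not mark strand, so overlapping genes on opposite strands may share reads.

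From the counts, each table was fitted on its own with edgeR 4.0.16 (limma 3.58.1, R 4.3.3): genes were kept by filterByExpr, scaled by TMM and tested by quasi-likelihood F, with p-values adjusted by Benjamini-Hochberg over all genes tested. Every adjusted p in the text is from this test. DE asks for an adjusted p below 0.05 and a log2 fold change beyond 0.5 in either direction, the thresholds of the study's methods. The study's results instead give a fold change above 1.3 with p below 0.05. The study names FN1 as down-regulated in its main text and FBN1 as up-regulated in its supplement. With unadjusted p below 0.05 from the test used here and a fold change above 1.3, all 9 genes passed between MCF10A and G12V, FBN1 among them. Standard errors were derived from the fold change and the square root of its F statistic, and the prior count was 0.125. The code was tested on simulated data. The labels call the replicates biological without naming separate cultures. The p-values thus set a difference against the spread between these libraries, which the test moderates across genes. An exact permutation test could not go below p = 0.333 with 2 against 2 or 0.1 with 3 against 3 libraries.

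The 9 genes and the lists were chosen with earlier results of these data known. Named besides the 9 were the list genes called, with values from 10 CPM in 1 group upwards, and the gene nearest to each of the 9 (at least 10 CPM on average in a table). In the Nutlin-3a experiment, same-numbered libraries deviated together from their group means over all genes (r = 0.641, 0.649 and 0.676), so the numbers were taken as pairs. Differently numbered ones had r from -0.499 to -0.206. Deviations from a group mean cancel out within the group, so these negative values follow largely from the positive ones and add little.

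Lengths are of GENCODE's canonical transcripts, or, where said, of the union of a gene's exons. Gene coordinates are those of the deposited tables, written 1-based. Alternatives were relative log expression and upper-quartile factors, library totals alone, no filter, more than 1 CPM in at least 2 libraries, DESeq2 1.42.0, edgeR's exact test, the replicate block, a prior count of 2, unadjusted p, and each library left out. Levels and figures were made in Python 3.11.15 (pandas 2.3.3, matplotlib 3.10.9). Protein sequences, ATAC-seq and ChIP-seq were not used here.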

Additional observations from a re-analysis of the deposited data

How the results depend on the processing

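Between MCF10A and G12V, the 9 genes kept their direction under each alternative run. The number DE was 6, and 6 to 9 under the other settings, with 7 on library totals alone (LTBP1 added) or with more than 1 CPM in at least 2 libraries (TNC added) and 9 with DESeq2, with edgeR's exact test and with the replicate block. With each library left out it was 0 to 8, and the 0 came without MCF10A replicate 1, where no gene of the table was DE and the lone MCF10A library is assumed to vary like the G12V ones. Same-numbered libraries of this table also deviated together from their group means (r = 0.535, and -0.535 for unlike numbers). With 2 libraries in each group this is 1 value with both signs, so pairing was not decided. The block is therefore not given beside the results of this table. With it the adjusted p from edgeR was 0.00284 for FBN1, 0.000129 for TNC and 0.000213 for LTBP1. Of the Nutlin-3a calls, 0 became 1 with no filter (THBS1, adjusted p = 0.0389) and 1 with the replicate block (THBS1), and it stayed at 0 with each library left out. The replicate block changed no other call of the 9 there. Log2 fold changes in the Nutlin-3a experiment that turned their sign were that of FN1 with the replicate block (0.091) and, with a library left out, those of FN1 (-0.49 to 0.50), FBN1 (-0.066 to 0.44), LTBP1 (-0.28 to 0.40), SPARC (-0.14 to 0.021), TNC (-0.59 to 0.38), LTBP2 (-0.034 to 0.14) and FBLN1 (-0.012 to 0.23). None of these was DE in either fit, and the cause was not tested. Over all genes, 1575 were DE between MCF10A and G12V, 2526 with the exact test and 4158 with the block, and 23 in the Nutlin-3a experiment, 83 with the exact test, 87 with DESeq2, 99 with no filter, 165 with the block and 7 to 11 with a library left out. Other scalings moved the median of all genes by less than 0.1 on the log2 scale.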
